A study of Caenorhabditis elegans with 2 samples.

Results

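Among the regions that ZAG-1 chromatin immunoprecipitation gave in whole third-stage larvae of Caenorhabditis elegans, 1131 of 10005 had their summit in an exon of an autosomal protein-coding gene and away from promoters. A region was taken when its summit lay on one of the 5 autosomes, inside an exon of a protein-coding transcript, and outside the window from 1000 bp upstream to 100 bp downstream of every protein-coding transcript start. The 1131 regions were 14.04% of the 8053 autosomal regions. All 1131 were 384 bp wide with the summit at the centre, and 914 of them reached past the edge of the exon that held the summit, so "exonic" describes the summit and not the whole region.

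The animals were of mixed sex and came from strain OP83, whose labels give the genotype unc-119(ed3) III with the transgene wgIs83, an insertion that carries zag-1 tagged with eGFP. The labels name the antibody only by its target, zag-1, and do not say which promoter drives the transgene. With 2 biological replicates of 1 group there were no conditions to compare, and all comparisons are between kinds of sequence or between the replicates. Each region carries a signal score that the authors set against a control. Lists that hold background regions on purpose were deposited for replicate 1 (30000 regions), replicate 2 (26202) and both together (10005, the joint list), beside an optimal set of 357 regions chosen for agreement between replicates. Read depth is unknown, and the intervals given below are exact 95% intervals that cover counting error only. In whole animals, occupancy in few cells and weak occupancy in many cells cannot be told apart.

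Worms have a single ZEB-type transcription factor, ZAG-1, with a homeodomain between clusters of zinc fingers. Vertebrate ZEB proteins bind the E-box CACCTG and act mostly as repressors, and mutants of zag-1 have defects in neuron fate and axon growth. Transcription factors are mapped mostly at promoters and other regulatory DNA, which in the compact worm genome can also lie inside genes. Coding exons, 5′ untranslated regions (5′ UTRs) and 3′ untranslated regions (3′ UTRs) are described separately here.

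The sequences below show what lay at or near exonic summits, read 5′ to 3′ on the plus strand of the ce11 genome (WBcel235, RefSeq). Stretches printed around a word do not all reach the summit. The first set gives the 30 bases around GAGAGA, or TCTCTC on the other strand, for the highest-scoring regions that held it within 50 bp of the summit on chromosomes II to V. Capitals mark the word.
lelo-2, 3′ UTR, chrIII:1419891-1419920: gaacctgagaacGAGAGAaaaaaaataaaa
glt-6, 3′ UTR, chrIV:7506343-7506372: gaaaacggttatTCTCTCctctttccgcga
mdt-15, 3′ UTR, chrIII:5828766-5828795: ggtgcaatatgtGAGAGAagaaaatgggtg
ZK112.4, coding sequence, chrIII:7729735-7729764: ccgagtcgagccGAGAGAcgataggaaacg
pigt-1, coding sequence, chrV:10958665-10958694: ttcctgttgaatTCTCTCtcggaattaaac
xpo-1, 3′ UTR, chrV:7814246-7814275: tcggaaccccttTCTCTCccactacttgat
The second set gives the 30 bases around CACCTG, or CAGGTG on the other strand, for the highest-scoring regions in which the word itself lay in exon sequence, because this is the word known for vertebrate ZEB proteins.
sel-2, coding sequence, chrIII:4611151-4611180: ggctttgtgttcCAGGTGttgatggttgag
patr-1, coding sequence, chrII:11776796-11776825: taccgtgcatacCACCTGgagacaacgacg
T08G3.13, coding sequence, chrV:16448726-16448755: tcatcgaccgatCACCTGcccattttgata
The third set gives the 30 bases at the centre of the highest-scoring members on the same chromosomes, with no word marked.
C34C12.2, 5′ UTR, chrIII:3456429-3456458: aagcgcgctccaccgcacgtgtgtaaaaca
dos-3, summit in coding sequence with the 3′ UTR beside it, chrIII:835813-835842: aattaatcataatcatcaggaatattaagg

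Exonic regions scored somewhat lower than the joint list as a whole, with a median rank of 5645 among its 10005 regions. Their scores ran from 12.21 to 74.28 with a median of 14.31, a lower quartile of 13.1 and an upper quartile of 16.23. The median of the whole joint list was 14.73. Autosomal promoter regions had a median of 15.19 and a 90th percentile of 26.8, where exonic regions had 18.67. Intronic regions had a median of 14.48 and intergenic regions 14.65. The deposited −log10 q-value, which rises with the score, had a median of 0.0725 over the exonic regions, which is a q-value of 0.846. High q-values were common to the list, with medians of 0.78 for promoter, 0.834 for intronic and 0.827 for intergenic regions. The −log10 q-value reached 1, a q-value of 0.1, in 19 exonic regions (1.68%, interval 1.01 to 2.61). It did so in 12.2% of promoter, 3.86% of intronic and 5.63% of intergenic regions. Regions of 1 list are not replicates, so these differences between classes were not tested.

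**Figure D1:**
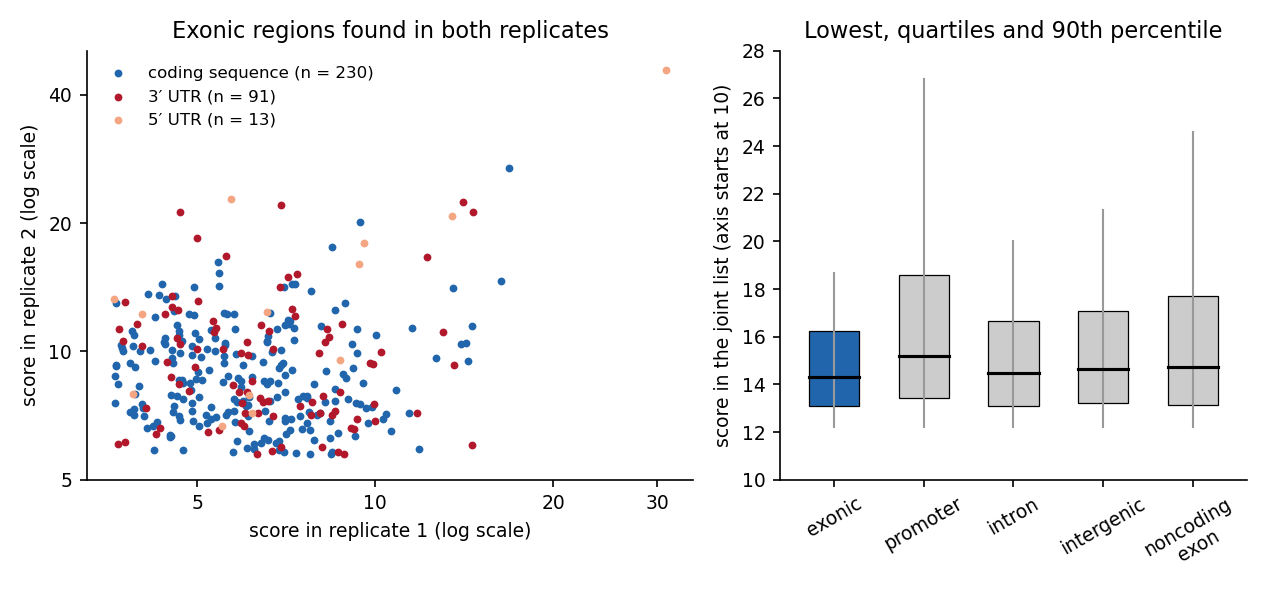
Left, score in replicate 1 (x axis, log scale) against score in replicate 2 (y axis, log scale) for the 334 exonic regions found in both replicates, coloured by part of the transcript; the C34C12.2 region stands at the upper right and most of the others form a cloud with no slope. These regions were selected by the joint list, which uses the reads of both replicates, so the cloud does not measure agreement. Right, score in the joint list for each autosomal class, with the line from the lowest value to the 90th percentile, the box from the lower to the upper quartile and the bar at the median; the exonic class has the lowest median, 14.31.

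The share of exonic regions was lowest among the strongest regions in the joint list and in each replicate alone. Exonic sequence outside promoter windows, called open exon sequence here, made up 19.1 Mb or 23.2% of the autosomes. Among the 100 highest regions of the joint list, 1 of 51 autosomal regions was exonic (1.96%, interval 0.0496 to 10.4). Between ranks 1000 and 2500 the share was 12.6% (interval 10.7 to 14.6), and between ranks 5000 and 10000 it was 16.1% (interval 15.0 to 17.2). Replicate 1 alone gave 1.75% among its 100 highest regions and 19.7% among its last 10000, and replicate 2 gave 1.79% and 18.5% in the first and last steps of its list. All these shares stayed below the share of base pairs, while promoter regions made up 70.6% of the autosomal regions among the 100 highest of the joint list and 28.8% between ranks 5000 and 10000.

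**Figure D2:**
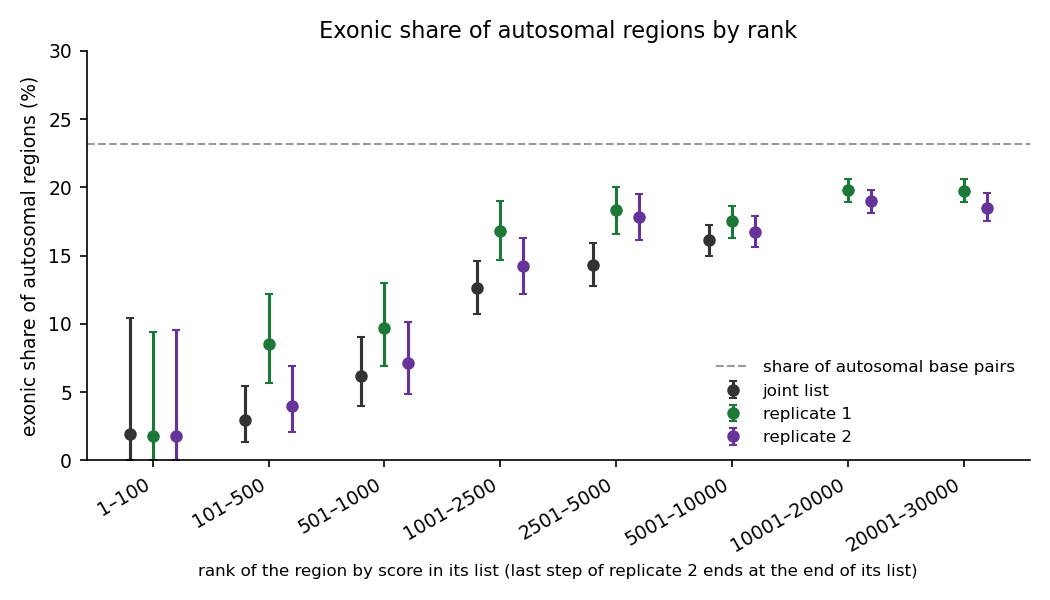
Exonic share of the autosomal regions (y axis, percent) in steps of rank by score (x axis) for the joint list and for each replicate alone, with exact 95% binomial intervals; the dashed line is the 23.2% of autosomal base pairs that were open exon sequence. In the joint list the share goes from 1.96% in the first step to 16.1% in the last, and it stays under the line in all 3 lists.

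Per length, 3′ UTRs held the most regions of the whole joint list and coding sequence the fewest. Coding sequence held 825 of the 1131 regions (72.9%, interval 70.3 to 75.5) in 88.7% of the open exon base pairs, a density of 48.6 regions per Mb (interval 45.4 to 52.1). The 3′ UTRs held 276 regions (24.4%, interval 21.9 to 27.0) in 9.62% of the base pairs, or 150 per Mb (interval 133 to 169). The 5′ UTRs held 30 regions (2.65%) in 1.71% of the base pairs, or 91.7 per Mb (interval 61.8 to 131), and most 5′ UTR sequence had been left out with the promoter windows. Introns outside promoter windows held 104 regions per Mb (interval 99.8 to 108), so the density of 3′ UTRs lay above that of introns and the density of coding sequence below it. The ratio of 3′ UTR to coding density was 3.08 in the joint list, 3.65 for those found in both replicates and 4.53 within the first 2500 ranks. Within those 2500 ranks 5′ UTRs held the most, 42.8 per Mb from 14 regions (interval 23.4 to 71.8), against 29.9 in 3′ UTRs (interval 22.5 to 38.9) and 6.60 in coding sequence, and the intervals of both UTRs overlapped.

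In each replicate alone 3′ UTRs again held the most regions per length and coding sequence the fewest, with a smaller ratio between them. Among as many of the highest regions as the joint list holds, replicate 1 had 61.9 regions per Mb in coding sequence and 146 in 3′ UTRs, a ratio of 2.35. Replicate 2 had 57.5 and 128, a ratio of 2.22. Over the whole lists, which reach further into background, the ratios were 1.79 and 1.85. Replicate 1 had 116 regions per Mb in 5′ UTRs and replicate 2 had 101, with intervals that overlapped those of 3′ UTRs.

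**Figure D3:**
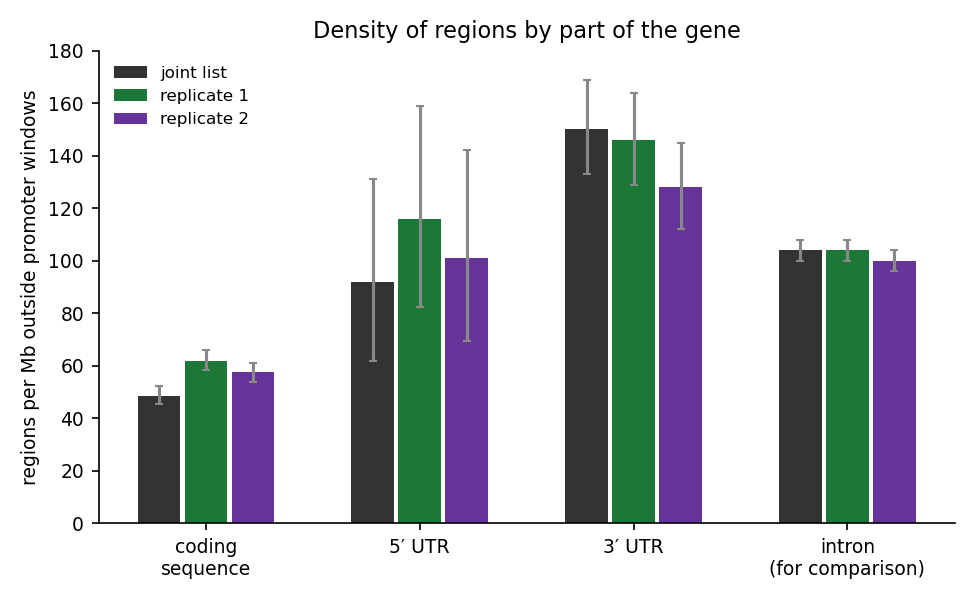
Regions per Mb of sequence outside promoter windows (y axis) in coding sequence, 5′ UTRs, 3′ UTRs and, for comparison, introns, for the joint list and for the same number of highest regions of each replicate, with exact 95% Poisson intervals. In all 3 lists 3′ UTRs stand highest (150, 146 and 128 per Mb) and coding sequence lowest (48.6, 61.9 and 57.5).

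Base composition differed between the parts and was compared within steps. Mean GC content over the 101 bp around each base was 41.2% in open coding sequence, 36.0% in 5′ UTRs and 31.4% in 3′ UTRs. At exonic summits it was 38.1% ± 8.07 (SD, n = 1131), below the 40.1% of all open exon sequence. By part, summits had 40.3% in coding sequence, 39.6% in 5′ UTRs and 31.2% in 3′ UTRs. Windows 500 bp to either side, which were not confined to exons, had 35.8% ± 9.03 (SD, n = 2262). Within windows of 25 to 30% GC, 3′ UTRs had 141 regions per Mb (interval 109 to 179) and coding sequence 75.9 (interval 56.7 to 99.6). At 30 to 35% the values were 118 and 49.6, and at 35 to 40% they were 168 (interval 125 to 221) and 50.2 (interval 43.9 to 57.2). The density of 3′ UTRs was thus higher than that of coding sequence in each of these steps, with ratios of 1.86, 2.37 and 3.35. Other properties in which these parts differ, such as conservation and the ease of mapping reads, were not tested. Of the 1131 summit windows, 15 (1.33%) held a 32-base word that occurs again in the genome, and none of these was among the 25 highest.

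**Figure D4:**
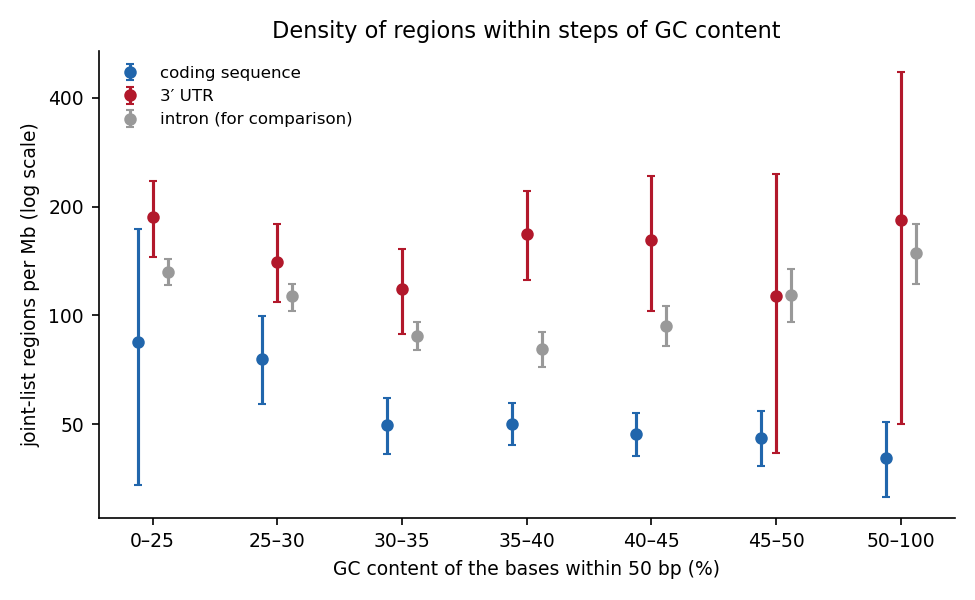
Joint-list regions per Mb (y axis, log scale) in coding sequence, 3′ UTRs and, for comparison, introns, within steps of GC content over the 101 bp around each base (x axis, percent), with exact 95% Poisson intervals. The 3′ UTR point lies above the coding point in each step, and the intervals do not overlap from 25 to 45% GC.

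Within 3′ UTRs, regions were not gathered at the transcript end. Density was 137 per Mb within 100 bp of the end (interval 112 to 166), 121 between 100 and 200 bp, 184 between 200 and 400 bp and 178 beyond 400 bp (interval 137 to 228). Most 3′ UTR summits were not upstream of the nearest start, since 221 of the 276 lay downstream of it, at 149 per Mb (interval 130 to 170). The 31 that lay upstream of the nearest start by up to 2000 bp gave 135 per Mb (interval 91.6 to 191), and the 24 that lay further upstream gave 191 (interval 122 to 284). These intervals overlap throughout.

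By place in the transcript, 88 regions lay in a first exon, 636 in an inner exon, 404 in a last exon and 3 in an only exon. Last exons held 35.7% of the regions (interval 32.9 to 38.6) in 21.8% of the base pairs, at 97.0 per Mb. The coding part of last exons had 54.4 regions per Mb and their 3′ UTR part 154, so most of the difference between last and inner exons (46.6 per Mb) lay in the 3′ UTRs. First exons had 72.6 per Mb, with 64.8 in their coding part and 102 in their 5′ UTR part. The exon under the summit had a median length of 332 bp, close to the 330 bp at which exons split open exon sequence into equal parts. The 5 autosomes ranged from 53.9 regions per Mb on V to 67.1 on III.

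Median scores on both sides of the promoter window's edges differed little downstream of a start. They differed more upstream of it, but those medians rest on few regions and the difference was not tested. Just inside the selection, 68 summits lay between 100 and 200 bp downstream of the nearest start, with a median score of 14.81, and just outside it 234 summits lay within 100 bp downstream, with a median of 14.63. On the upstream side, 20 selected summits up to 1200 bp from the start had a median of 14.05, and 39 exonic summits between 800 and 1000 bp, left out as promoters, had 15.11. Another 508 summits lay in exons but within a promoter window, these 39 included, with a median of 14.48. The nearest start belonged to the host gene for 829 of the 1131 regions and to another gene for 302, and the median distance was 1423 bp.

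Support in the replicate lists was partial. A replicate summit lay within 100 bp of 596 exonic summits in replicate 1 (52.7%, interval 49.7 to 55.6) and of 793 in replicate 2 (70.1%, interval 67.4 to 72.8). Both replicates had one for 334 (29.5%, interval 26.9 to 32.3), replicate 1 alone for 262, replicate 2 alone for 459, and neither for 76. The joint list was made from the reads of both replicates, so being found in them is not independent support. As a background, 4.93% of open exon base pairs lay within 100 bp of a replicate 1 summit, 4.04% of a replicate 2 summit and 0.445% of both. Both replicates held 39.0% of promoter regions, 32.8% of intronic and 34.9% of intergenic regions.

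Support followed rank more than class. Among the 34 exonic regions of joint rank 1000 or better, 25 were found in both replicates (73.5%, interval 55.6 to 87.1), against 79.0% of promoter regions of the same ranks. Between ranks 2500 and 5000 the shares were 39.4% for exonic regions (interval 33.7 to 45.2) and 36.6% for promoter regions. Below rank 5000 they were 17.2% (interval 14.4 to 20.3) and 21.0% (interval 18.7 to 23.4). For the 334 exonic regions found in both, the log2 scores in the replicates had a Pearson r of 0.113 and a Spearman rho of -0.0678 across regions, which are not independent samples. Only 6 of the 334 were among the 1000 highest regions of each replicate, and 28 among the 5000 highest of each.

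Matched directly between the replicates, which share a control but no reads, exonic regions were found in smaller shares than promoter regions, with intervals that did not overlap among the 1000 highest. Of the exonic regions among the 1000 highest of replicate 1, 17 of 65 had a replicate 2 summit within 100 bp (26.2%, interval 16.0 to 38.5), against 206 of 354 promoter regions (58.2%, interval 52.9 to 63.4). In the other direction 16 of 42 exonic regions were found (38.1%, interval 23.6 to 54.4), against 229 of 382 promoter regions (59.9%, interval 54.8 to 64.9). Intronic regions gave 34.5% (interval 27.3 to 42.3) and 41.6% (interval 34.2 to 49.3) in these directions. Intergenic regions gave 44.1% in each, and the intervals of both classes overlapped those of exonic regions. Over the whole list of replicate 1, 9.47% of 4603 exonic regions were found in replicate 2, where 4.04% of open exon base pairs lay that close to a summit. For replicate 2 the share was 11.3% of 3734 regions, against 4.93% of base pairs. Promoter regions gave 17.1% and 18.8% over the whole lists, against 6.03% and 6.61% of promoter base pairs. Scores of exonic and promoter regions differ within these lists, and the shares were not compared at equal score.

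**Figure D5:**
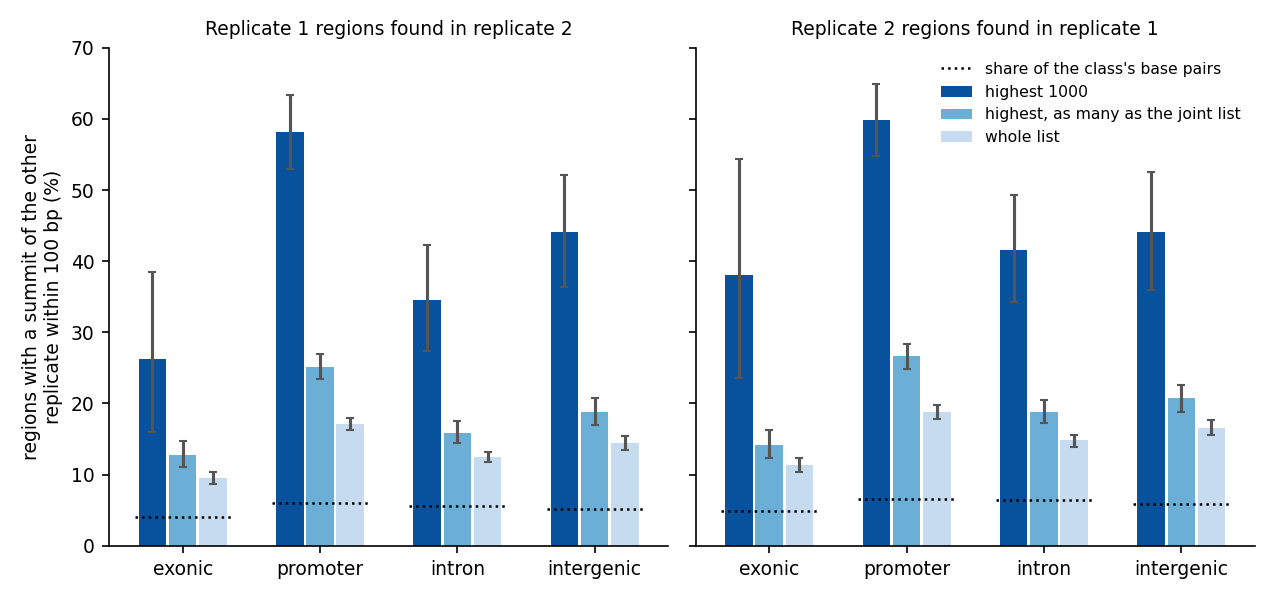
Share of the regions of one replicate with a summit of the other within 100 bp (y axis, percent) by autosomal class, for its 1000 highest regions, for as many as the joint list holds and for the whole list, with exact 95% binomial intervals; dotted lines give the share of the class's base pairs that lie within 100 bp of a summit of the other replicate. Exonic regions have the lowest bars of the 4 classes in both directions, 26.2% and 38.1% for the 1000 highest.

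Of the 252 autosomal regions in the optimal set, 4 were exonic (0.354% of the exonic regions, interval 0.0964 to 0.903), against 158 of the promoter regions (6.01%). The strongest lay in the 5′ UTR of C34C12.2 at chrIII:3456251-3456634, with a score of 74.28 and rank 64 in the joint list. It ranked 55 in replicate 1 and 72 in replicate 2, with summits 3 and 0 bp away. It lay in a first exon of 2829 bp, and the nearest start, 2098 bp away, was that of C34C12.1. The second, in the last exon of dos-3, a gene of the Delta and OSM-11 family of Notch co-ligands, scored 40.17 and ranked 206 and 226 in the replicates. The third, in the 3′ UTR of mom-5, which encodes a Frizzled receptor of Wnt signals, scored 35.26 and ranked 334 and 385. The fourth, in the 3′ UTR of lelo-2, scored 34.57 and ranked 389 and 320. Its summit lay inside the GAGAGA shown above, which starts 4 bp before it. These 4 had similar ranks in both replicates, which is what the optimal set was chosen for.

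The 25 exonic regions of highest score divided into 10 in coding sequence, 10 in 3′ UTRs and 5 in 5′ UTRs, and 21 of them were found in both replicates. Regions in 3′ UTRs after the optimal set were those of lpl-1 (score 32.59), lgg-1 (29.27), mtm-3 (27.21), W06H8.6 (27.01), kin-18 (25.68), cdk-12 (24.56), eat-16 (23.80) and exc-4 (23.24). Their genes encode, among others, the Atg8 homologue of autophagy (lgg-1), a myotubularin phosphatase (mtm-3), a TAO kinase (kin-18), a kinase of the RNA polymerase tail (cdk-12) and a chloride channel homologue of the excretory canal (exc-4). Those of kin-18 and exc-4 had no replicate 1 summit within 100 bp, with the nearest 1796 and 474 bp away, and that of mtm-3 just missed, at 102 bp. In replicate 2 the same 3 regions ranked 447, 576 and 460. Regions of lpl-1, W06H8.6 and cdk-12 counted as found in both, but their replicate 1 summits ranked only 6734, 19279 and 16582 of 30000.

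In 5′ UTRs the region of egl-30, the Gq alpha subunit, scored 32.25 and lay 256 bp downstream of its start, and GAGAGA lay within 50 bp of the summit together with GACGCA and also GAGACG. The 3′ UTR region of eat-16, an RGS protein known to act on this Gq pathway, held the same 3 words. These words overlap in their letters and can all lie in a single short stretch, so they need not be separate matches. A link between the 2 genes was not tested. The 2 regions ranked 469 and 451 in replicate 1 and 406 and 7374 in replicate 2. Other 5′ UTR regions were those of ZK484.6 (25.58), unc-62, a Meis-type homeobox gene (25.43), and F22D3.4 (24.82). That of unc-62 ranked 311 in replicate 2 and 12073 in replicate 1, and that of F22D3.4 had its nearest replicate 2 summit 117 bp away.

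In coding sequence the highest regions after dos-3 were those of Y71F9AL.8 (29.97), F25B5.5 (29.63), aptf-1 (28.70), T28F4.4 (28.58), fcd-2 (26.15), nprt-1 (25.98), unc-68 (25.31), oac-49 (24.19) and Y43B11AR.3 (23.45). Of these, aptf-1 encodes an AP-2 transcription factor, fcd-2 the homologue of the Fanconi anaemia repair protein FANCD2, nprt-1 a nicotinate phosphoribosyltransferase and unc-68 the ryanodine receptor. The unc-68 region lay in exon 18 of 49, 10060 bp from the nearest start, and ranked 374 in replicate 1 and 4856 in replicate 2. The regions of Y71F9AL.8 and fcd-2 lay close to a start instead, at 115 and 149 bp.

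The 1131 regions lay in 1035 host genes, 6.46% of the 16020 autosomal genes with open exon sequence (interval 6.08 to 6.85). A single region was held by 951 genes, a pair by 75, and 3 or more by 9. Hosts had more open exon sequence than other genes, with medians of 1601 and 883 bp, so shares of host genes are not per length. Because windows of 384 bp were called close together, 50 of the 1131 regions (4.42%) overlapped another of them. The tagged gene zag-1 held no exonic region, in 2142 bp of open exon sequence.

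The 8 genes with most exonic regions, taken by summed score where counts tied, held 27 of them, 15 in 3′ UTRs. W06H8.6 had 4 over 4145 bp, and 3 of these, scoring 27.01, 17.78 and 16.07, lay in the 3′ UTR in a last exon of 3057 bp. The muscle gene unc-89, which encodes an obscurin homologue, had 4, scoring 18.71, 17.26, 15.57 and 15.06, and the first 2 overlapped in the 3′ UTR, 217 bp apart. The gene mup-4, which encodes a transmembrane protein that attaches epidermis to cuticle, had 4 between 12.72 and 15.80. The others held 3 each: oac-49, unc-70 (beta spectrin), rbc-2 (a rabconnectin homologue), dig-1 (a giant matrix protein) and ncl-1 (a TRIM-NHL protein that limits the nucleolus). The unc-70 region of highest score, 22.16, ranked 508 in replicate 2 and had its nearest replicate 1 summit 901 bp away, and its 3′ UTR neighbour 200 bp away scored 14.42.

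Host genes were also counted in 23 gene lists, beside the 6.46% of all genes and, because genes differ in length, the 59.1 regions per Mb of all open exon sequence. No test was made of these lists, and most hold few genes. Their densities are given without intervals, and a gene can be in more than 1 list. Genes of neurons are given first, since zag-1 is known for its neuronal part.

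The neurotransmitter and axon guidance lists held more hosts than the share of all genes, and the difference was smaller per length. Among genes of neurotransmitters and their receptors 12 of 63 were hosts (19.0%, interval 10.2 to 30.9), at 118 regions per Mb. The highest were cat-2, tyrosine hydroxylase of dopamine synthesis (22.85), unc-25, glutamate decarboxylase of GABA synthesis (21.76), and the glutamate receptor gene glr-2 (16.96), all in inner coding exons. Ranks of the cat-2 region were 917 in replicate 1 and, 107 bp away, 9889 in replicate 2. Those of unc-25 were 846 and 3493. Among axon guidance and outgrowth genes 12 of 57 were hosts (21.1%, interval 11.4 to 33.9), at 78.5 per Mb, led by max-2, a PAK kinase (18.58), sax-7, an L1-type adhesion molecule (18.30), and unc-14 (16.41).

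Pan-neuronal synaptic and vesicle genes had 5 hosts of 31 (16.1%, interval 5.45 to 33.7), at 55.4 per Mb, which is below the value for all genes. They were led by the 3′ UTRs of egl-3, a proprotein convertase (21.38), unc-11, an AP180 clathrin adaptor (20.29), and ric-8 (15.40). Neuropeptide genes, which are short, had 1 host of 100 (interval 0.0253 to 5.45), flp-14 (17.44), at 25.8 per Mb. Genes of touch receptor and FLP neuron fate had 3 hosts of 15, at 114 per Mb. They were mec-17, a tubulin acetyltransferase (19.13, in the 3′ UTR), egl-44, a TEAD transcription factor (17.86), and sem-4, a Spalt zinc finger factor (13.14). The egl-44 region had summits at 0 bp in both replicates but ranked 1843 in replicate 1 and 14852 in replicate 2.

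Among other regulators, homeobox genes had 5 hosts of 72 (6.94%), at 87.7 per Mb, led by unc-62, ceh-100 (20.62) and unc-30, a Pitx-type factor of GABA neurons (16.78). Of 245 genes for nuclear hormone receptors 11 were hosts (4.49%), at 40.2 per Mb, with the highest scores in nhr-34 (21.17), nhr-43 (18.72) and nhr-131 (16.67). Heterochronic genes, which time larval fates, had 4 of 14 (28.6%, interval 8.39 to 58.1), at 134 regions per Mb, led by lin-42 (16.77), lin-66 (14.10) and lin-28 (13.61). The regions of lin-66 and lin-28 lay in 3′ UTRs, had summits within 100 bp in both replicates, and ranked between 8972 and 19028 there. Germline and P granule genes had 1 of 69, htp-3 (13.01), at 10.7 per Mb.

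Muscle sarcomere and attachment genes had 9 hosts of 34 (26.5%, interval 12.9 to 44.4), at 83.0 regions per Mb. Beside unc-89 they were led by myo-1, a pharyngeal myosin heavy chain (17.30), and alp-1 (16.74). Cuticle collagens had 3 of 143, col-52 (17.81), col-60 (13.07) and col-138 (12.50), at 32.4 per Mb. The list of basement membrane and matrix genes had 3 of 17, which were epi-1, a laminin alpha (14.08), unc-52, perlecan (13.20), and vab-10 (13.10). Its density, 23.2 per Mb, is below the value for all genes although the share of genes is above it. The list counts vab-10, which encodes a linker of the cytoskeleton, and not dig-1, so these values describe the list as written and not all matrix genes. Cytoskeletal genes had 1 of 26, unc-70, at 33.9 per Mb, and the single autosomal vitellogenin gene, vit-6 (13.32), was a host.

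Housekeeping lists held 6 hosts or fewer each, but in little open exon sequence, so that all except the translation factor and histone lists had more regions per Mb than all genes. Cytosolic ribosomal protein genes had 2 of 47, rps-18 (20.35) and rpl-14 (12.66), at 133 regions per Mb, and translation factors 1 of 37, eif-2Bdelta (16.20), at 27.1 per Mb. Genes of tRNA synthetases had 4 of 31, led by sars-1 (20.57), aars-1 (14.44) and wars-1 (12.83), at 97.4 per Mb. Mitochondrial ribosomal proteins had 4 of 47, led by mrpl-4 (18.39), mrpl-53 (14.91) and mrps-31 (13.22), at 147 per Mb. The respiratory chain had 2 of 33, cox-5A (14.49) and nuo-1 (12.36), at 82.3 per Mb. Chaperones and proteasome had 6 of 53, led by hsp-1 (18.41), cct-1 (13.61) and cct-3 (13.51), at 106 per Mb. These densities rest on 1 to 6 regions a list and have no intervals. Whether they differ from the value for all genes beyond counting error was not tested. Histone genes had 0 of the 3 with open exon sequence (upper bound 70.8%).

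Large families of chemosensory and defence genes held few hosts for their size. Chemoreceptor genes had 42 hosts of 1259 (3.34%, interval 2.41 to 4.48), at 41.3 regions per Mb, led by str-118 (20.17), srd-32 (19.13) and sru-42 (18.83). Genes of F-box, BATH and C-type lectin proteins had 15 of 600 (2.50%, interval 1.41 to 4.09), at 30.3 per Mb, led by clec-11 (18.30), math-18 (16.70) and fbxa-163 (15.49). Both shares and both densities were below the values for all genes. The density for all genes mixes coding sequence, at 48.6 per Mb, with 3′ UTRs, at 150 per Mb. Lists were not compared by part of the transcript.

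In the joint list the vertebrate ZEB word was not more frequent at exonic summits than in open exon sequence, and GAGAGA was somewhat more frequent. CACCTG lay within 50 bp of 27 of the 1131 summits on either strand (2.39%, interval 1.58 to 3.45), in 2.56% of the windows 500 bp away and in 3.02% of all open exon windows of the same length. With the highest regions of a single replicate in place of the joint list the share was 3.319% for replicate 1, above that of open exon windows, and 2.494% for replicate 2. GAGAGA lay in 84 (7.43%, interval 5.97 to 9.11), against 5.75% of the windows 500 bp away and 5.55% of open exon windows. With the highest regions of a single replicate the share was 8.04% for replicate 1. For replicate 2 it was 6.11%, closer to that of open exon windows. A higher share of GAGAGA at summits was not particular to exonic regions. GAGAGA lay at 9.93% of autosomal promoter, 7.47% of intronic and 10.5% of intergenic summits. In their windows 500 bp away the shares were 6.2%, 6.41% and 6.43%. Of the members above the upper quartile of score 11.7% held GAGAGA, and 8.13%, 4.59% and 5.32% did in the steps down to the lowest. CAGGTA was in 2.12% of summit windows and 2.79% of open exon windows, GACGCA in 2.48% and 1.94%, and GAGACG, which overlaps GAGAGA by 4 bases, in 2.39% and 3.58%.

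By part of the transcript, GAGAGA exceeded its frequency in open windows in the UTRs. It was in 31 of 276 summit windows in 3′ UTRs (11.2%, interval 7.76 to 15.6), where 7.48% of open 3′ UTR windows hold it, and in 7 of 30 in 5′ UTRs (23.3%, interval 9.93 to 42.3, against 7.49%). In coding sequence it was in 46 of 825 (5.58%, interval 4.11 to 7.37, against 5.30%). CACCTG was in 26 of the 825 coding windows (3.15%, against 3.20%) and in 1 of the 276 in 3′ UTRs (0.362%, against 1.43%), where the word lay beyond the exon. A match describes these letters near a summit and is not a binding site. Without the library of a different factor beside them, exonic signal of ZAG-1 and signal common to immunoprecipitates cannot be told apart.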

How the data were processed

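ZAG-1 occupancy was measured by ChIP-seq. Per the labels' notes, the authors called regions in ce10 and ce11 on the alignment of each replicate, or on both, with 1 shared control, and took the optimal set by irreproducible discovery rate. The sources used here do not name aligner, caller or thresholds. The authors' deposited score ranks regions within a list and is not scaled between lists, and the −log10 q-value was used as deposited. Only ce11 lists were used, with WBcel235 gene models of Ensembl release 115. Coordinates are 1-based.

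Each exon base was given to 1 transcript, coding sequence before 5′ UTR before 3′ UTR, then the longest coding sequence. Shares have exact Clopper-Pearson and densities exact Poisson intervals. No test was run, since the series has 1 group and regions are not replicates. Members, the 23 lists (7 of 467 written symbols matched no gene) and alternatives were chosen with earlier results of these data known. Named genes are hosts of the 25 highest members, of optimal members, the 8 genes with most members, up to 3 hosts per list and zag-1, and genes of printed sequences. Scripts used Python 3.11.15, NumPy 2.4.6, SciPy 1.17.1 and matplotlib 3.10.9, and were tested on simulated data.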

Additional observations from a re-analysis of the deposited data

How the results depend on the processing

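No paired analysis was possible because there was only 1 group. Of the values below, densities, the ratio of 3′ UTR to coding density and list hosts under alternatives were added after seeing the data. With a promoter window of 500 bp the median start distance was 1199 bp. With 2000 bp upstream and 500 bp downstream it was 2006 bp, with 70.2% in coding sequence and 40.79% in last exons. The 2500 highest regions held 181 exonic regions in 177 hosts, 28 of them in lists, against 146 in lists for all. There 61.88% were coding, 39.78% in last exons, 12.71% held GAGAGA, 58.56% were found in both replicates, and the start distance was 1296 bp. From 1 replicate alone, coding sequence held 77.43 to 78.44%, last exons 29.69 to 32.23%, GC content was 38.57 to 38.61%, the start distance 1317 to 1363 bp and the density 64.99 to 70.90 per Mb. Support in both replicates was 18.04% within 50 bp, 43.32% within 200 bp, 52.17% for 1 shared bp, 42.62% for 50% overlap, and 6.897% for the highest regions of each replicate. GAGAGA lay within 100 bp of 13.09% and within 25 bp of 3.89%, CACCTG of 5.04% and 1.149%. The ratio of densities was 1.86 at 25 to 30% GC. Another 47 values under alternatives stayed within their interval or within 1.5 times. CACCTG from replicate 1 alone (3.319%) passed the frequency in open exon windows, where the joint list lay below it. Wider windows and looser matches find more by construction; the cause of the other shifts was not tested. Unknown depth limits all scores.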
